A study of Mus musculus with 4 samples.

Results

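The 10 genes described here, Pdgfra, Dcn, Lum, Dpt, Pi16, Serpinf1, Gsn, Dpep1, Smoc2 and Clec3b, mark fibroblasts of the adventitia, the outer coat of an artery. They were taken by gene name from the probes that are not controls, and are 10 of the 37074 gene names on the array and 17 of its 56605 probes. The tested group was labelled SR-A1-/- (arrays K4 and K5), and the other group wild type (arrays W2 and W3). SR-A1 is the macrophage scavenger receptor encoded by Msr1. Every array measured abdominal aorta of male mice, with an age of 12 weeks in the labels, collected 4 weeks after an operation with CaPO4 that both groups received. Calcium phosphate placed around the aorta is a way to induce an aneurysm in mice. The labels name no allele, strain or count of animals per RNA, and no aorta without CaPO4 was analysed here, so a response of these genes to the operation itself could not be read.

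Adventitial fibroblasts build and repair the collagen-rich coat that holds an artery together. They carry the receptor PDGFRA, secrete small leucine-rich proteoglycans such as decorin and lumican that set the width and spacing of collagen fibrils, and release inhibitors and carriers of proteases. Several of the genes are not unique to these cells. Gelsolin is also abundant in smooth muscle, and pigment epithelium-derived factor (Serpinf1) is also secreted by adipocytes. In bulk tissue fewer fibroblasts and less RNA per fibroblast cannot be told apart.

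Values are log2 of the Cy3 signal relative to the 75th percentile of the array. That percentile was 245 on K4 and 133 on K5, against 132 on W2 and 220 on W3, so each group held an array of high and an array of low signal. Between 57.6% and 62.6% of probes were well above background, all arrays shared 1 slide and 1 scan time, and with 2 arrays a group the precision is low. Msr1 went against the labels: both of its probes were well above background on K4, K5 and W3 and not on W2. At the tested probe Msr1 read -1.26 and -2.09 on K4 and K5, against -5.30 and -2.10 on W2 and W3. Where the deletion lies is not known here, so these probes may read sequence that is still transcribed, and each direction refers to the array labels alone. Separate animals are not stated for the arrays, so the spread behind each p-value may be technical.

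All 17 probes of the fibroblast genes were well above background on all 4 arrays, which 54.9% of all probes were, and 0 of their spots were saturated. The probes are 60-base oligonucleotides. The 4 sequences below are shown because they let the results be read at another site of Serpinf1 and Gsn, and because Dcn has a single probe. Each holds at least 1 reading frame without a stop. The decorin probe holds 2 such frames, and its capitals mark the stop codon that ends its remaining frame. Positions are on mm9.
Dcn, base 1230 of NM_007833, chr10:96980233-96980292, plus strand: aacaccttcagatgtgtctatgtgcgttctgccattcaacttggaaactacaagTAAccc
Serpinf1, base 425 of NM_011340, chr11:75229163-75229222, minus strand: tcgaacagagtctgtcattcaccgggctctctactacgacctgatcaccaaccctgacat
Serpinf1, base 984 of NM_011340, chr11:75224421-75224480, minus strand: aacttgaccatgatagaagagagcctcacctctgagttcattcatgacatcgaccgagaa
Gsn, base 330 of NM_146120, chr2:35139533-35139592, plus strand: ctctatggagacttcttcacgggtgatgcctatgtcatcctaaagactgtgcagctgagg

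The comparison sets the fibroblast genes of operated SR-A1-/- aortas against those of operated wild-type aortas. Of the 10 genes, 0 passed an adjusted p of 0.05 in limma, as did 0% of the 22498 genes tested. At an unadjusted p under 0.05 there were also 0 of 10, against 6.29% of all genes. Group means were higher on the arrays labelled SR-A1-/- for 9 genes and lower for 1, Pi16, where 49.3% of all genes had a higher mean. The median difference was 0.53 over the 10 genes and -0.01 over all genes tested, and differences ranged from -0.29 to 1.04. Lum, Serpinf1 and Smoc2 were the 3 genes whose groups did not overlap, which is 3 of 10 against 29.8% of all genes, a share near the background. All 3 were higher, where 16.1% of all genes were apart and higher and 13.7% apart and lower. None of the 10 was apart with means at least 2-fold different, against 6.4% of all genes.

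**Figure D1:**
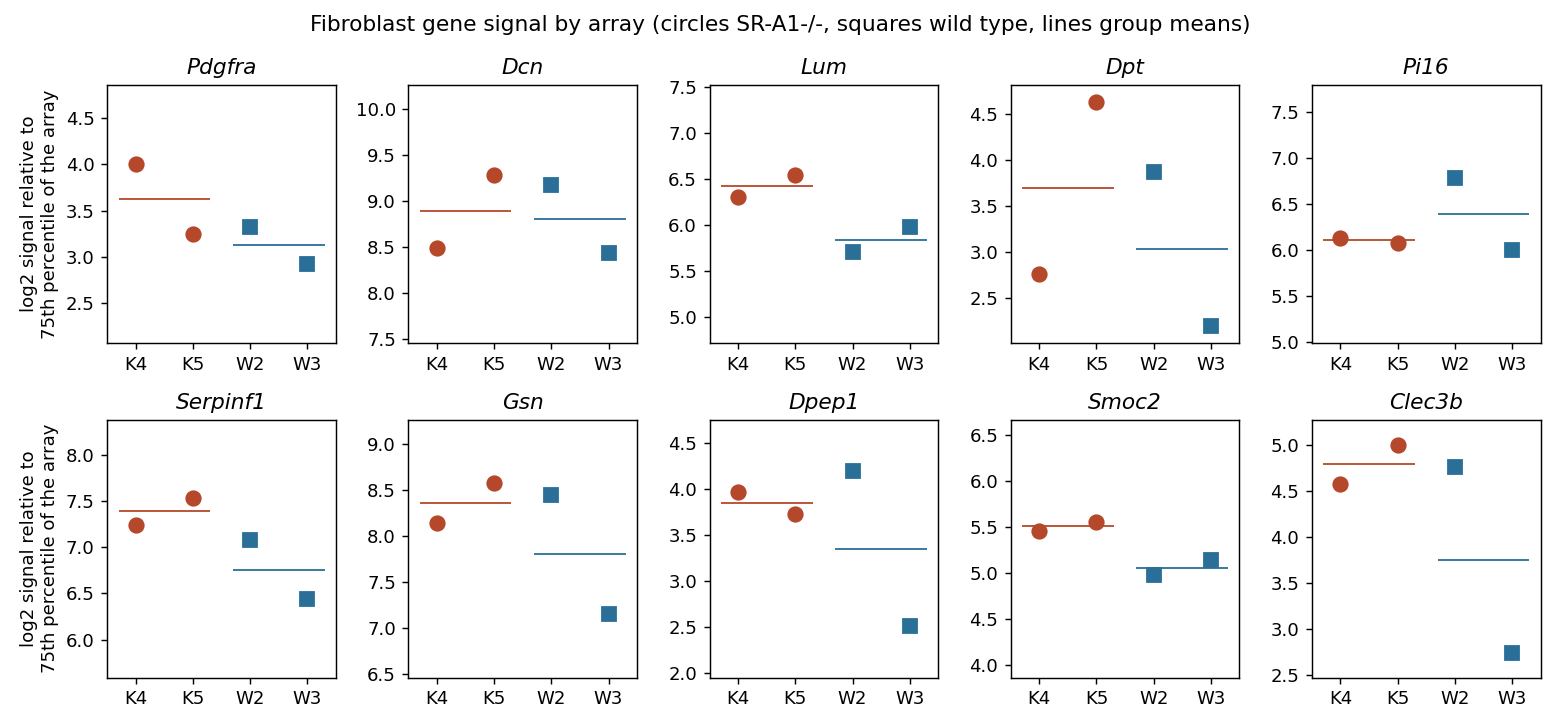
Log2 signal relative to the array's 75th percentile (y axis, same span in every panel) of the 10 fibroblast genes on arrays K4 and K5 (circles, SR-A1-/-) and W2 and W3 (squares, wild type), with lines at the group means. W3 was the lowest array for 8 of the 10 genes, and the circles lay above both squares for Lum, Serpinf1 and Smoc2.

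Pdgfra encodes the receptor tyrosine kinase for platelet-derived growth factors that is the usual surface marker of fibroblasts. It read 4.01 and 3.24 on K4 and K5, against 3.33 and 2.92 on W2 and W3. K5 lay below W2, so the groups overlapped. The difference was 0.50 ± 0.39 (limma SE, 2 arrays per group). The tested probe, at chr5:75593888-75593947, starts at base 6211 of transcript NM_011058. The other probes of this gene, on the clone transcripts AK139094 and AK145097, differed by 0.95 ± 0.72 and 0.37 ± 0.39.

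Of the matrix genes, decorin had the smallest mean difference of all 10 genes. Dcn, the collagen-binding proteoglycan decorin, read 8.49 and 9.29 on K4 and K5, against 9.17 and 8.43 on W2 and W3. The highest and the lowest of these values belonged to different groups, the values in between were crossed, and the difference was 0.09 ± 0.44. Lum, whose product lumican binds and spaces collagen fibrils, read 6.30 and 6.54 on K4 and K5, against 5.70 and 5.98 on W2 and W3. Both arrays labelled SR-A1-/- lay above both labelled wild type. The difference of 0.58 ± 0.29 had the smallest p of the 10 genes (adjusted p = 0.939 in limma), and its 95% interval ran from -0.18 to 1.34. Its probe lies at chr10:97035210-97035269, near that of Dcn, and in the RefSeq gene order of GRCm38.p6 the proteoglycan genes Dcn, Lum, Kera and Epyc follow one another.

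Dpt, dermatopontin, a matrix protein that binds decorin, varied most within groups. It read 2.76 and 4.62 on K4 and K5, against 3.86 and 2.20 on W2 and W3. The low-signal arrays K5 and W2 were the high ones in both groups, and the difference was 0.66 ± 0.84. Smoc2, a secreted calcium-binding protein related to SPARC, varied least at the tested probes. It read 5.46 and 5.55 on K4 and K5, against 4.98 and 5.14 on W2 and W3. The groups did not overlap at this probe, and the difference was 0.45 ± 0.28 (95% interval -0.27 to 1.16).

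Among the secreted inhibitors, Serpinf1 and Pi16 had mean differences of opposite sign. Serpinf1 encodes a serpin that inhibits vessel growth rather than proteases. It read 7.25 and 7.54 on K4 and K5, against 7.08 and 6.44 on W2 and W3, a difference of 0.63 ± 0.35 (adjusted p = 0.985 in limma, 95% interval -0.28 to 1.54). The groups did not overlap at the tested probe. Nor did they at the other Serpinf1 probes, where the sequences above gave differences of 1.05 ± 0.46 at base 425 and 1.02 ± 0.47 at base 984. Pi16, a marker of the Pi16-positive fibroblasts found in the adventitia, read 6.13 and 6.08 on K4 and K5, against 6.79 and 6.0 on W2 and W3. The arrays labelled SR-A1-/- were nearly equal and lay between those labelled wild type, and the difference was -0.29 ± 0.37.

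Clec3b encodes tetranectin, a secreted lectin that binds plasminogen. It read 4.57 and 5.0 on K4 and K5, against 4.76 and 2.74 on W2 and W3. W3 lay far below the other arrays, and W2 lay between K4 and K5. The difference of 1.04 ± 0.71 was the largest of the 10 genes, with a 95% interval from -0.79 to 2.86.

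Gsn encodes gelsolin, which severs and caps actin filaments. It read 8.14 and 8.57 on K4 and K5, against 8.45 and 7.15 on W2 and W3, a difference of 0.56 ± 0.51. The groups overlapped through W2 at this probe. At the base 330 probe printed above they did not, with a difference of 0.85 ± 0.54. Dpep1, a membrane dipeptidase that cleaves leukotrienes, read 3.97 and 3.73 on K4 and K5, against 4.19 and 2.51 on W2 and W3. W2 was the highest and W3 the lowest array, and the difference was 0.50 ± 0.60.

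The higher median of the 10 genes depended on W3, though some of the genes stayed higher without that array. W3 was the lowest array for 8 of the 10 genes and at 15 of the 17 probes, where it was lowest for 29.2% of all genes. Lum and Smoc2 were the exceptions among the genes, with W2 lowest, as for 21.7% of all genes. K5 was highest for 7 genes, W2 for 2 and K4 for 1, against 24.5%, 25.1% and 23.4% of all genes. W2 and W3 lay farther apart than K4 and K5 for 7 of the 10 genes, against 53.3% of all genes. Without W3 the median difference was -0.030, with 5 genes higher and 5 lower. Without W2 it was 0.83 and all 10 genes were higher. Without K4 the median was 0.59 with 9 genes higher, and without K5 it was 0.43 with 7 higher.

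**Figure D2:**
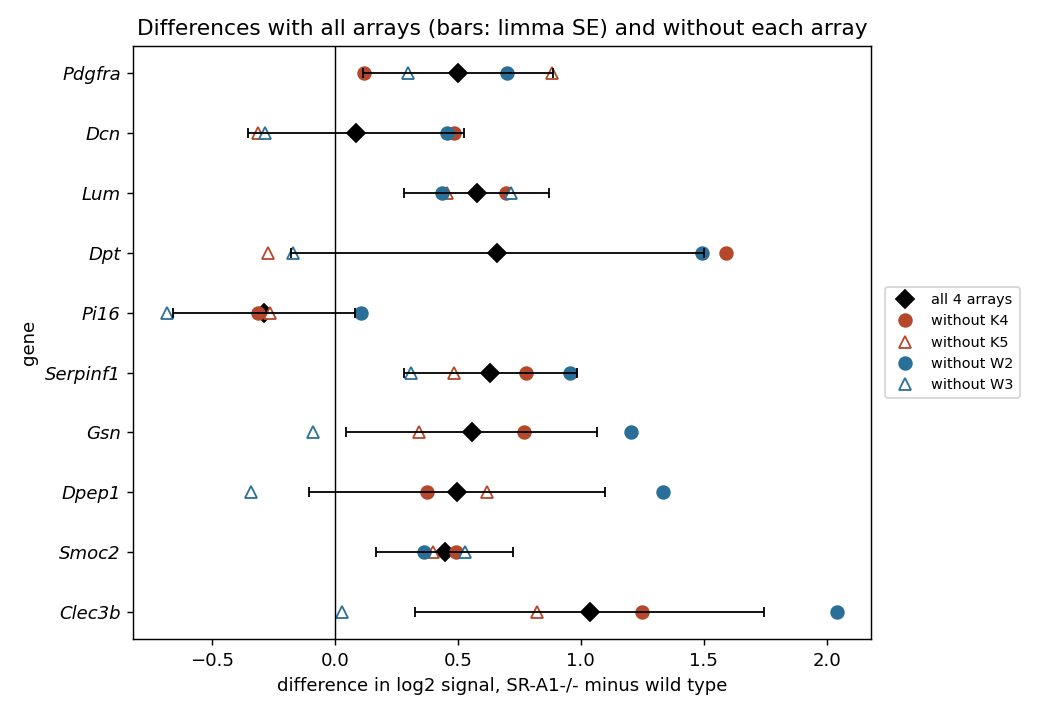
Difference in log2 signal, SR-A1-/- minus wild type (x axis), of the 10 fibroblast genes with all 4 arrays (diamonds, bars are the limma SE) and without each array in turn. At the tested probes Clec3b differed by 0.03 without W3 and by 2.04 without W2, whereas Lum and Smoc2 stayed between 0.36 and 0.72.

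At their tested probes Lum, Smoc2, Serpinf1, Pdgfra and Clec3b kept a positive difference without any 1 array. Lum ranged from 0.44 to 0.72, Smoc2 from 0.36 to 0.53, and Serpinf1 from 0.31 to 0.96. Pdgfra ranged from 0.12 to 0.88 and Clec3b from 0.03 to 2.04. At another probe each of Smoc2 and Pdgfra the sign turned without W3. K4 and K5 averaged 3.59 at Smoc2 base 1550, against 3.63 on W2. They averaged -1.83 at Pdgfra base 1777 of AK139094, against -1.74 on W2. Dcn, Dpt, Gsn, Dpep1 and Pi16 changed sign without at least 1 array. Groups did not overlap for 10 of the 10 genes without W2, 5 without W3, 7 without K4 and 4 without K5, against 70.3%, 62.5%, 66.5% and 60.3% of all genes. The lowest adjusted p of any of the 10 genes with an array left out was 0.0952 in limma, for Clec3b without W2, with W3 then assumed to vary like the other group.

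Arrays of like signal level were also compared, K4 with W3 and K5 with W2. All 10 genes were higher on K4 than on W3, where 50.7% of all genes were, with a median difference of 0.68. Between K5 and W2, 7 of 10 were higher, where 47.2% of all genes were, with a median of 0.18. Clec3b differed by 1.83 between K4 and W3 and by 0.24 between K5 and W2, and Dpep1 by 1.46 and -0.46. Lum went the other way, with 0.32 between K4 and W3 and 0.83 between K5 and W2. With signal level as a block in limma, 0 of the 10 genes passed, and the lowest adjusted p was 0.353, for Dpt.

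**Figure D3:**
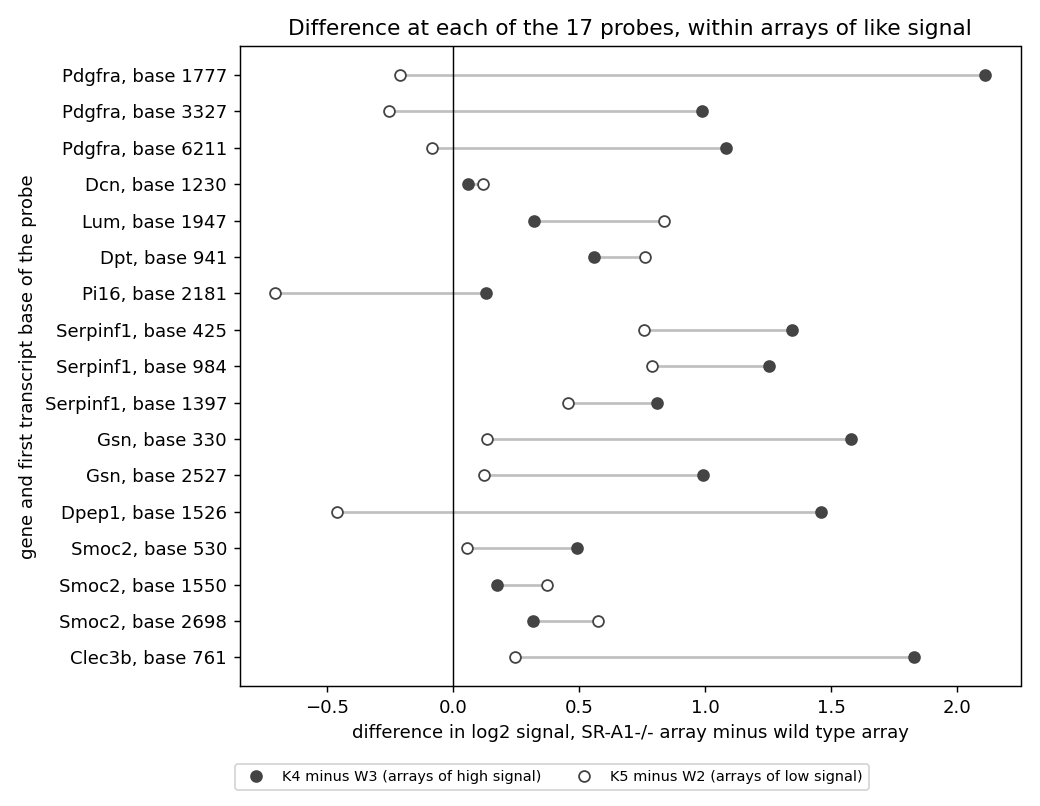
Difference in log2 signal (x axis) at each of the 17 probes, named by gene and first transcript base, for K4 minus W3 (filled) and K5 minus W2 (open). Filled points were above 0 at all 17 probes, while open points were below 0 for Pdgfra, Pi16 and Dpep1.

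Probes of the same gene had group means in the same direction. Group means were higher on the arrays labelled SR-A1-/- at 16 of 17 probes, and the groups did not overlap at 7 of 17, against 30.2% of all tested probes. Probes of a gene share its RNA and are no replicates of the condition. For Gsn and Smoc2 the groups overlapped at some probes and not at others. Those of Smoc2 did not overlap at the tested probe but overlapped at base 1550 of the same transcript (0.27 ± 0.42). They did not overlap at base 530 of the clone transcript AK040109 (0.27 ± 0.29). That probe was dim, at -2.88 and -3.05 on K4 and K5, against -3.11 and -3.38 on W2 and W3.

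The deposited values of the authors, processed by a method not given in the sources used here, changed which groups overlapped. In them 6 of the 10 genes did not overlap, with Dcn, Gsn and Pi16 added, against 31.5% of all genes. Dcn was at 16.37 and 16.45 log2 units on K4 and K5, against 16.19 and 16.03 on W2 and W3, a difference of 0.30 in place of 0.09. Pi16 was at 13.59 and 13.62 on K4 and K5, against 14.10 and 13.62 on W2 and W3, so K5 and W3 were nearly equal. Quantile normalisation gave 5 such genes, adding Dcn and Gsn, against 31.7% of all genes.

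Relatives of the 10 genes were read from family lists. Of 12 small leucine-rich proteoglycan genes besides Dcn and Lum, 0 passed an adjusted p of 0.05, 9 had a higher mean on the arrays labelled SR-A1-/-, and their median difference was 0.38. Groups did not overlap for 4 of them, all higher, a share of 33.3% near the 29.8% of all genes. The asporin gene Aspn read 0.82 and 0.65 on K4 and K5, against -0.01 and -0.48 on W2 and W3, a difference of 0.98 ± 0.31 (adjusted p = 0.689 in limma). Podn, which encodes podocan, differed by 0.83 ± 0.33. Epyc and Kera, singled out for their position after their values were seen, were not well above background on every array. Nor was Podnl1, among the 4 without overlap and also named after its values were seen. It was not well above background on W3, and read -2.97 on K4 against -3.00 on W2.

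In the PDGF family, groups did not overlap for 4 of the 6 other genes, with 2 higher and 2 lower on the arrays labelled SR-A1-/-, where 29.8% of all genes did not overlap. Pdgfc, a ligand of PDGFRA, read 2.20 and 2.36 on K4 and K5, against 0.50 and 1.94 on W2 and W3, and differed by 1.06 ± 0.53. Pdgfrl, a receptor-like gene, differed by 0.62 ± 0.31, while the groups overlapped for the other receptor gene, Pdgfrb. The 2 lower genes, named after their values were seen, were the ligand genes Pdgfa (-0.43 ± 0.31) and Pdgfd (-0.53 ± 0.30). In the gelsolin family 6 of 7 genes were tested, with Vill, a villin-like gene, at 2.64 ± 0.51 (adjusted p = 0.368 in limma) and the capping protein gene Capg at 0.89 ± 0.33. Of the 6, 4 had a higher mean and 2 a lower one, with a median of 0.44. Groups were apart and higher for 2, where 16.1% of all genes were. They were apart and lower for 1, where 13.7% were: Svil (-0.36 ± 0.28), named after its value was seen. Vil1 was not well above background on any array.

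Of 7 SPARC and SMOC relatives, 5 had a lower mean on the arrays labelled SR-A1-/-, with a median of -0.31. Of all genes, 49.3% had a higher mean. Without W2 the median of these relatives was 0.095, with 5 of 7 higher. Without K4 it was 0.065, with 4 of 7 higher. The testican gene Spock2 differed by 1.20 ± 0.53 and Sparcl1 by -0.91 ± 0.54. Sparcl1 differed by 0.11 between K4 and W3 and by -1.94 between K5 and W2. Dpep2, the one dipeptidase relative tested, differed by 1.17 ± 1.18. It read -0.19 and -0.50 on K4 and K5, against -3.32 and 0.29 on W2 and W3, and differed by -0.63 without W2. Dpep3 was not well above background. Of 7 genes of plasminogen binding and serpin F relatives 5 were tested, led by the urokinase gene Plau at 1.04 ± 0.45 and the protease inhibitor gene Serpine2 at -0.73 ± 0.37. In each of these families 0 genes passed an adjusted p of 0.05 in limma.

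In a list of 32 other fibroblast genes W3 was lowest for 21, 25 had a higher mean on the arrays labelled SR-A1-/- (49.3% of all genes did), and the median difference was 0.31. Without W3 that median was 0.082, with 20 of 32 higher. Groups did not overlap for 10, with 8 higher and 2 lower, near the 29.8% of all genes. The gelatinase gene Mmp2 read 4.71 and 5.40 on K4 and K5, against 4.21 and 3.77 on W2 and W3, a difference of 1.07 ± 0.38 (adjusted p = 0.733 in limma). Igfbp6, an IGF-binding protein, differed by 1.28 ± 0.52.

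Fibrillar collagens and genes of activated fibroblasts had medians nearer 0. The 7 collagen genes had a median difference of 0.01, with differences from -0.22 (Col11a1) to 0.22 (Col5a2), and W3 lowest for 3. Of 15 activated fibroblast genes 11 had a lower mean on the arrays labelled SR-A1-/-, with a median of -0.13. Comp, the cartilage oligomeric matrix protein, was higher in mean by 1.77 ± 0.57 and Tnc, tenascin C, lower by a difference of -0.76 ± 0.30. Neither passed an adjusted p of 0.05 in limma. The difference between these lists and the 10 genes was not tested.

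**Figure D4:**
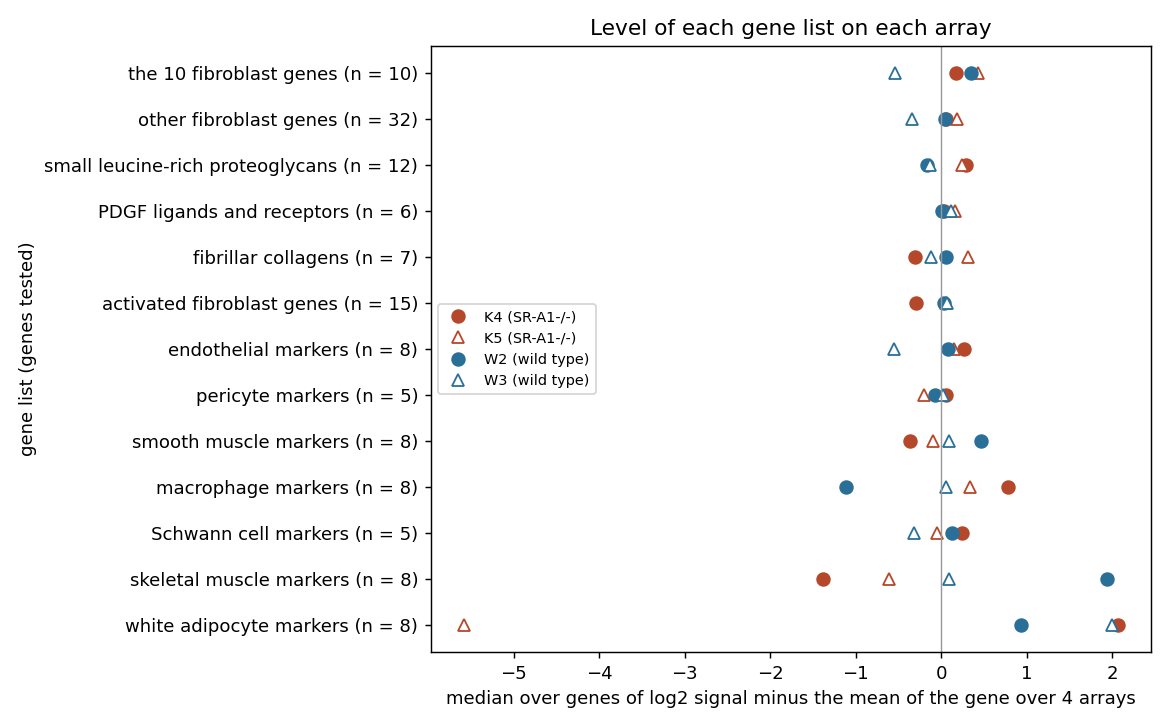
Median over the genes of a list of the log2 signal minus the gene's own mean over the 4 arrays (x axis), for each array, with lists down the page. W3 stood lowest for the 10 fibroblast genes at -0.55, where K4, K5 and W2 lay at 0.17, 0.43 and 0.35, while the adipocyte markers stood at -5.58 on K5.

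Markers of other cells in the sample moved between arrays too, and their part in the fibroblast values was not tested. Endothelial markers were lowest on W3 for 5 of 8 genes, as the fibroblast genes were. Their summed signal, in units of the array's 75th percentile, was 80.4 to 117 on the arrays labelled SR-A1-/-, against 70.9 to 90.7 on those labelled wild type. Such a sum is weighted to the brightest genes of a list. Of the 8 endothelial markers 5 had a higher mean, with a median difference of 0.53. Vwf differed by 1.28 ± 0.62, Emcn by 0.61 ± 0.32, Pecam1 by 0.50 ± 0.35 and Cdh5 by -0.33 ± 0.35. The summed signal of the 10 fibroblast genes was 1050 to 1479 on the arrays labelled SR-A1-/-, against 762 to 1325 on those labelled wild type.

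Muscle markers were lower in mean on the arrays labelled SR-A1-/-. All 8 smooth muscle markers had a lower mean, where 49.3% of all genes had a higher one. Groups did not overlap for 6 of them, all lower, where 13.7% of all genes were apart and lower. These markers summed to 1093 to 1326 on the arrays labelled SR-A1-/-, against 1395 to 1914 on those labelled wild type. Myocd differed by -0.93 ± 0.36, Cnn1 by -0.62 ± 0.27 and Myh11 by -0.50 ± 0.28. All 8 skeletal muscle markers had a lower mean, and groups did not overlap for 6 of them, against the same 13.7%. They summed to 144 to 245 on the arrays labelled SR-A1-/-, against 407 to 1372 on those labelled wild type. Myh4 differed by -2.28 ± 0.58, Mylpf by -1.87 ± 0.54, Ckm by -2.56 ± 1.25 and Acta1 by -1.16 ± 0.70.

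White adipocyte markers summed to 625 on K4 and 30.1 on K5, against 394 on W2 and 676 on W3. Cfd differed by -3.77 ± 2.38, Adipoq by -3.65 ± 2.66 and Plin1, not well above background on K5, by -3.35 ± 2.60, while Lep differed by 0.55 ± 0.34. The median difference of the 8 markers was -3.18 with all arrays. Without K5 it was 0.52, with 7 of 8 higher. K5, the array low in these markers, was highest for 7 of the 10 fibroblast genes. The fibroblast median without K5 was 0.43.

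Macrophage markers summed to 172 to 218 on the arrays labelled SR-A1-/-, against 62.4 (W2) to 284 (W3) on those labelled wild type. Lyz2, the brightest of them and named after its value was seen, weighs most in these sums. It read 7.06 and 6.78 on K4 and K5, against 5.25 and 7.86 on W2 and W3. C1qa differed by 1.74 ± 0.28, Fcgr1 by 1.87 ± 0.47, Adgre1 by 1.82 ± 0.68 and Cd68 by 1.15 ± 1.16. Of the 8 markers 7 had a higher mean, with a median of 1.16, and Mertk, named after its value was seen, was lower without overlap (-0.50 ± 0.33). Without W2 the median was 0.49, with 4 of 8 higher. Pericyte markers summed to 87.5 to 98.8 on the arrays labelled SR-A1-/-, against 114 to 129 on those labelled wild type, with Rgs5 at -1.20 ± 0.28, Abcc9 at 0.51 ± 0.32 and Kcnj8 at -0.14 ± 0.28. The sum and the median of this list differed in sign: the median was 0.38, with 3 of 5 genes higher in mean. That median was -0.045 without W2 and -0.025 without K4. Of the other pericyte markers, named after their values were seen, Notch3 differed by 0.38 ± 0.29 and Higd1b by 0.42 ± 0.49. Schwann cell markers summed to 12.6 to 15.2 on the arrays labelled SR-A1-/-, against 11.8 to 18.0 on those labelled wild type, with Mbp at 0.91 ± 0.37. Of 6 mesothelial markers, Upk3b, Lrrn4 and Upk1b were not well above background on any array, and Msln and Wt1 differed by 0.53 ± 0.38 and 0.52 ± 0.46. Krt19, named after its value was seen, differed by 0.72 ± 1.13 and was not well above background on K5 and W3. The median of the 3 tested was 0.53, but -0.01 with normexp background correction, where 1 of 3 was higher. Of all the markers named, 0 passed an adjusted p of 0.05 in limma.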

How the data were processed

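RNA of 4 abdominal aorta samples was labelled with Cy3 and read on 4 one-colour Agilent arrays. Per the file headers, the authors' processed signal is an intensity from Agilent Feature Extraction 12.0.3.1 (10.7 per the submitters' processing notes, which also name limma), background-subtracted and detrended, with surrogates for low values. A table of log2 values was also deposited by the authors, with its normalisation not given in the sources used here. Per the file headers, mean spot and local background signals are unprocessed intensity readings.

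From these, log2 of the signal minus the array's 75th percentile was computed. Outlier spots were left out, repeated spots were averaged, 35107 probes that exceeded background clearly on 2 or more arrays were kept, and the brightest probe was taken per gene name. The test was limma (version 3.58.1, functions lmFit and eBayes, under R 4.3.3 with data.table version 1.17.8), two-sided, with Benjamini-Hochberg adjustment over 22498 genes. The fit was tested on simulated data with independent normal noise. A pass was required only for changes larger than any of the 10 genes had, so it does not bear on those differences. Figures used matplotlib 3.10.9 in Python 3.11.15. The genes, lists and tests were chosen with earlier results of these data known. Named genes were the 10, Msr1, the 2 of each other list with the smallest p, and the first 2 of each cell marker list, and some genes this rule names are not reported here. Set tests were not run. Alternatives were other normalisations, background correction (normexp, offset 50), filters, probe summaries, variance models, the deposited values, signal level as a block and each array left out.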

Additional observations from a re-analysis of the deposited data

How the results depend on the processing

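The count of the 10 fibroblast genes past an adjusted p of 0.05 was 0 under each of the 17 alternatives run. Over all genes the count was 0 with all arrays and 8 with quantile normalisation, 7 with median scaling, 8 with cyclic loess, 22 with normexp background correction, 8 with no filter on dim probes, 5 with an intensity trend, 2 with array weights and 8 with the deposited values. With each array left out it ran from 0 to 371, the upper values without W2 (260) and without W3 (371). The median difference of the 10 genes ran from -0.030 to 0.83 over arrays left out. Over those fits Dcn ranged from -0.31 to 0.49 (-0.28 without W3), Dpt from -0.27 to 1.59 (-0.17 without W3), Gsn from -0.090 to 1.20, Dpep1 from -0.34 to 1.34 and Pi16 from -0.68 to 0.11. These are fits with fewer samples. No other alternative turned the direction of any of the 10 genes. The number of the 10 whose groups did not overlap was 3, and 5 with quantile normalisation, 6 with the deposited values and 4 with normexp, against 31.7%, 31.5% and 20.9% of all genes. Median scaling left 42.8% of all genes with a higher mean, against 49.3%. The labels' numbers (W2, W3, K4, K5) join no array of one group to one of the other, so no fit paired by number was made. The block joined arrays of like signal level. The number of arrays and, for dim probes, the signal over background limit what can be detected.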
